A study of Cubamyces sp. BRFM 1775 with 14 samples.

Results

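Pine wood was set against purified cellulose as the growth substrate of the white-rot fungus Leiotrametes sp. BRFM1775 (Polyporales). The comparison is the deposited value on pine minus the deposited value on cellulose for every gene of the table, 1052 genes, and it concerns 6 of the series' 14 labelled samples. The pine cultures (3 labelled samples) held 15 g/l of ground and sifted pine wood with 2.5 g/l maltose. The cellulose cultures (3 labelled samples) held 15 g/l Avicel, a microcrystalline cellulose, with the same 2.5 g/l maltose. All cultures were of strain BRFM1775, grown with shaking for 3 days at 30 °C in the same mineral medium, and mycelium was frozen together with what was left of the solid substrate. Added sugar was thus equal, and the solid substrate was the labelled difference. The other substrates serve here only to place the genes of this comparison: ground aspen and wheat straw at 15 g/l, and a sugar culture with 20 g/l maltose and no solid. The wheat straw cultures held 2.5 g/l maltose, and for the aspen cultures the labels misprint how much maltose was added.

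White-rot fungi such as those of the Trametes group secrete enzymes that open crystalline cellulose, hydrolases that cut hemicelluloses and pectins, and oxidases and peroxidases that attack lignin. Pine is a softwood: its cellulose is embedded in glucomannan-rich hemicellulose and in a lignin built mainly of guaiacyl units, and it carries resin extractives. Avicel offers the cellulose without that matrix. Fungi switch such genes on and off with the breakdown products they sense and with easily used sugar, which represses many of them. The table names genes by protein number only and does not pair the numbers with names, so the genes below are described by their behaviour and none is assigned to an enzyme family. For the same reason the labelled substrates could not be checked against marker genes.

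The deposited table holds 1 log2 value per gene and substrate. These values proved to be means over libraries of log2(normalised reads + 1), and whole read numbers of the single libraries could be recovered for most genes. The pine column was made from 3 libraries and the cellulose column from 2, although the labels list 3 cellulose samples; which of them is absent is not known. Reads were recovered for 789 genes on pine, for 1048 on cellulose and for 787 on both. Most genes left unsolved on pine, 245 of them, have a pine value above 12 and were not attempted. The size factors were 0.708, 0.891 and 0.906 for the pine libraries and 1.08 and 1.17 for the cellulose libraries, which are numbered in this order. The median solved gene had 189 to 204 reads in a pine library and 527 and 582.5 reads in the cellulose libraries. The pine medians leave out the genes above 12, so the 2 substrates cannot be compared by them. Over all genes the median deposited value was 9.30 on pine and 8.92 on cellulose. Pine library 1 stood apart from the other pine libraries: it gave the highest pine value for 422 of the 787 genes, and the median absolute log2 difference was 0.41 and 0.46 between it and the others, against 0.23 between libraries 2 and 3. The cellulose libraries differed by a median of 0.40. The chi-square per degree of freedom was at least 12.9 for each pair from one substrate, beyond sampling noise, so no library was counted as a duplicate. The labels do not say that replicates were separate flasks, and p-values therefore reflect only library-to-library spread, which can be technical.

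The 2 substrates gave widely different transcript levels. A gene was called when limma's adjusted p was below 0.05 and the log2 difference was at least 1. By this rule 296 genes were higher on pine, 28.1% of all genes tested, and 187 were lower, 17.8%. Reads were not solved on pine or cellulose for 125 of the higher calls and 21 of the lower ones. For these genes the missing spread did not enter the p-value, which rests on the spread of the solved substrates. The median difference was 2.12 among the genes called higher and -2.07 among those called lower, with a median standard error of 0.29 over the called genes. Over all genes the deposited differences ran from -6.89 to 11.09, and their interquartile range was -0.66 to 1.34. A further 40 genes were past a difference of 1 without meeting the p threshold, 17 of them higher and 23 lower on pine, and 128 genes met the p threshold with a smaller difference. In these whole-culture libraries, a change in all cells and a change in some of them cannot be told apart.

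**Figure D1:**
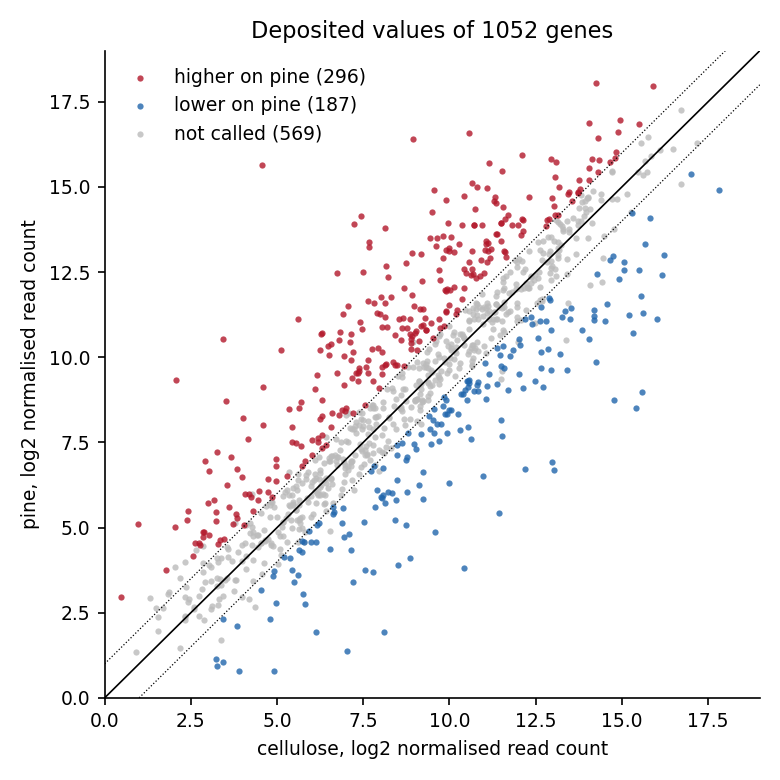
Deposited log2 normalised read counts of 1052 genes on pine (vertical axis) against cellulose (horizontal axis). Each point is a gene, red where it was called higher on pine (296), blue where lower (187) and grey where not called (569); the solid line marks equal values and the dotted lines a difference of 1. The red points reach farther from the line than the blue ones, up to 11.09.

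The centre of these differences depends on how the libraries are scaled. The median difference over all genes was 0.27 as deposited, -0.070 when libraries were centred on their medians, -0.079 under quantile normalisation and -0.043 when each was moved by its median offset to the gene averages (the median shift). These scalings move the differences down, which favours lower calls: 243, 230 and 232 genes were called lower under median centring, quantile normalisation and the median shift, against 187 as deposited. Higher calls numbered 250, 238 and 252, and 235 of the 296 higher calls remained called under all 3 scalings. Of all calls, 61.28% were higher on pine as deposited, 50.71% with median centring and 50.85% after quantile normalisation.

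Most called differences were moderate. Among genes called higher on pine, 135 differed by 2-fold to 4-fold, 125 by 4-fold to 16-fold, 29 by 16-fold to 64-fold and 7 by more. Among genes called lower, the numbers were 92, 74, 14 and 7. The largest increases were not confined to genes at the detection floor. The 7 genes higher by at least 64-fold had a median value of 14.14 on pine and 7.23 on cellulose, and the 29 in the class below had 12.51 on pine and 7.67 on cellulose. The 7 genes lower by at least 64-fold had a median of 6.91 on pine and 13.02 on cellulose. Genes nearly silent on one substrate and clearly expressed on the other were rare among the 787 genes with recovered reads. Only 1 had at least 100 reads in each pine library and at most 10 in each cellulose library, and 2 had at most 10 reads in each pine library and at least 100 in each cellulose library. These read limits were chosen after the values were seen. Genes with a pine value above 12 were not attempted, so this count could not include them. Of the 7 genes higher by at least 64-fold, 2 had recovered reads on both substrates, against 6 of the 7 lower ones. After quantile normalisation the higher calls past 16-fold numbered 18, against 36 as deposited. With 32 normalised reads added in place of 1 the lower calls past 16-fold numbered 13, against 21.

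As deposited, higher calls were most frequent among abundant transcripts. When the genes were divided into 4 equal classes by their mean level over the 5 substrates, 53 genes were higher and 47 lower in the class of lowest level. In the next class 64 were higher and 49 lower, and in the one above it 81 and 56. In the class of highest level 98 genes were higher and 35 lower, so that 73.7% of its calls were higher on pine; this share was 60.9% after quantile normalisation and 61.7% with median centring. In that class only 36 of 263 genes had recovered reads on both substrates, so for most of its calls the pine spread is missing and the gene's error comes from its other substrates. In the other classes, from low to high level, 44.7%, 47.7% and 48.1% of calls were higher after quantile normalisation. With median centring these shares were 40%, 46.2% and 51.8%. The median difference was 0.53 in the class of highest level, against 0.04 to 0.23 in the other classes. The mean level includes the pine and cellulose values that set the calls. It also includes aspen and wheat straw, whose values more often lay nearer to pine than to cellulose in the called genes. The classes are thus not independent of the calls, and their shares are a description.

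The called genes were also described by their amount of transcript. Since they were chosen on the pine and cellulose values, their shares on these substrates are a description. Taken back from the log2 scale, the 296 genes higher on pine made up 58.4% of the summed values on pine and 16.2% on cellulose. The 187 genes lower on pine made up 4.53% of the sum on pine and 35.7% on cellulose. On aspen, wheat straw and maltose, whose levels did not enter the difference, the 296 genes made up 47.0%, 37.2% and 22.2% of the sum, and the 187 genes 10.1%, 16.2% and 18.2%. Of the 20 most abundant genes on pine, 13 were called higher there and 0 lower. Of the 20 most abundant on cellulose, 1 was called higher on pine and 9 lower. Ranking by pine or by cellulose level itself favours calls in that direction. The sums use averaged log2 values taken back to the linear scale, so they do not give read shares of a single library.

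Genes were named by the size of the change in normalised reads, among called genes whose pine and cellulose libraries were solved and did not overlap. This held for 171 of the 296 higher genes and for 157 of the 187 lower ones, so the most abundant pine transcripts could not enter. Of the 787 genes solved on both substrates, 34.8% had every pine library above both cellulose libraries and 30% had every pine library below both. The table's numbers carry no names, so 2 genes are given in each direction.

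Gene 1118954 had 6292, 2859 and 2313 normalised reads in the pine libraries, against 219 and 302 in the cellulose libraries. Every pine library was far above both cellulose libraries, and library 1 was the highest on pine. Its log2 level was 11.76 on pine (SD 0.76, 3 libraries) and 8.01 on cellulose (SD 0.33, 2 libraries), a difference of 3.75 (SE 0.37, limma adjusted p = 7.85e-06). Aspen, wheat straw and maltose gave values of 9.81, 9.26 and 9.03, so that pine held the highest of the 5 levels and cellulose the lowest. The test of pine against aspen gave a difference of 1.95 (SE 0.33, limma adjusted p = 0.00129), and that of pine against wheat straw 2.50 (SE 0.37, limma adjusted p = 0.000637). These tests reuse the pine libraries on which the gene was chosen, and that choice favours pine.

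Gene 1316507 had 5237, 2987 and 2716 normalised reads in the pine libraries, against 264 and 368 in the cellulose libraries. The groups did not overlap, and library 1 was again the highest on pine. The difference was 3.48 (SE 0.27, limma adjusted p = 1.92e-06), between a level of 11.77 on pine (SD 0.51, 3 libraries) and 8.29 on cellulose (SD 0.34, 2 libraries). Here wheat straw stood near pine, at 11.51: the difference of pine minus wheat straw was 0.26 (SE 0.27, limma adjusted p = 0.448). Aspen was lower than pine, at 10.70, with a difference of pine minus aspen of 1.07 (SE 0.24, limma adjusted p = 0.00512), and maltose was at 9.34.

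Gene 1117416 showed the reverse, with 4514, 1745 and 1409 normalised reads in the pine libraries, against 107765 and 41789 in the cellulose libraries. Even the highest pine library was far below the lower cellulose library, although both groups spread widely. Its level was 11.12 on pine (SD 0.89, 3 libraries) and 16.03 on cellulose (SD 0.97, 2 libraries), a difference of -4.91 (SE 0.56, limma adjusted p = 6.36e-05). Without cellulose library 1 the difference was -4.23, and without cellulose library 2 it was -5.59. The gene was also high in the sugar culture, at 15.69 on maltose, and low on the other plant materials, at 10.12 on aspen and 11.23 on wheat straw. The tests of pine minus aspen (1.00, SE 0.50, limma adjusted p = 0.13) and pine minus wheat straw (-0.11, SE 0.56, limma adjusted p = 0.893) missed the threshold.

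Gene 379663 had 398, 419.8 and 744 normalised reads in the pine libraries, against 53799 and 45599.7 in the cellulose libraries. The cellulose libraries lay close together and far above every pine library. The level was 8.97 on pine (SD 0.50, 3 libraries) and 15.60 on cellulose (SD 0.17, 2 libraries), a difference of -6.63 (SE 0.32, limma adjusted p = 5.66e-07). Unlike gene 1117416, it was lowest in the sugar culture, at 6.46 on maltose, and intermediate at 10.92 on aspen and 11.75 on wheat straw. It was lower on pine than on aspen by a difference of -1.95 (SE 0.29, limma adjusted p = 0.00114) and than on wheat straw by -2.79 (SE 0.32, limma adjusted p = 0.000347).

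**Figure D2:**
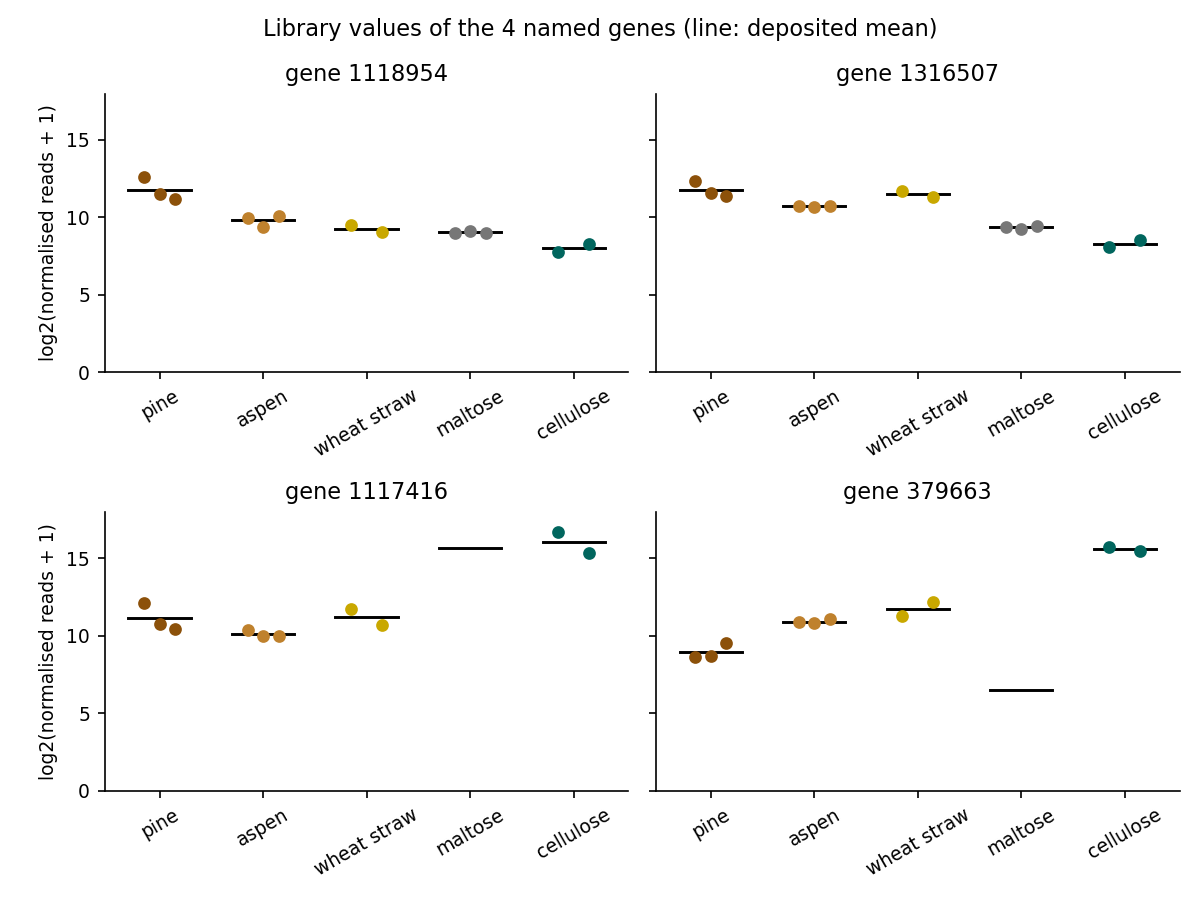
Library values, log2(normalised reads + 1), of the 4 named genes on pine, aspen, wheat straw, maltose and cellulose. Points are libraries and lines the deposited means; no points are drawn where reads were not solved, as on maltose for genes 1117416 and 379663. Gene 1117416 is high on maltose (15.69) as on cellulose (16.03), while gene 379663 is low on maltose (6.46) and highest on cellulose (15.60).

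The levels on all substrates show what each group of called genes shares. The genes higher on pine had a median of 11.13 on pine, 10.55 on aspen, 10.46 on wheat straw, 8.40 on maltose and 8.64 on cellulose. Their medians on cellulose and on sugar were thus close to each other and below those on each plant material. The genes lower on pine had a median of 8.15 on pine, 8.06 on aspen, 8.82 on wheat straw, 8.61 on maltose and 10.25 on cellulose, so that cellulose stood above all the others. The 569 genes not called had medians between 8.19 and 8.63 on the 5 substrates. The groups were chosen on the difference between pine and cellulose. The levels on the other substrates did not enter that difference, but the spread between their libraries entered the error of the test. With the pine and cellulose libraries alone, 273 genes were called higher and 170 lower.

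**Figure D3:**
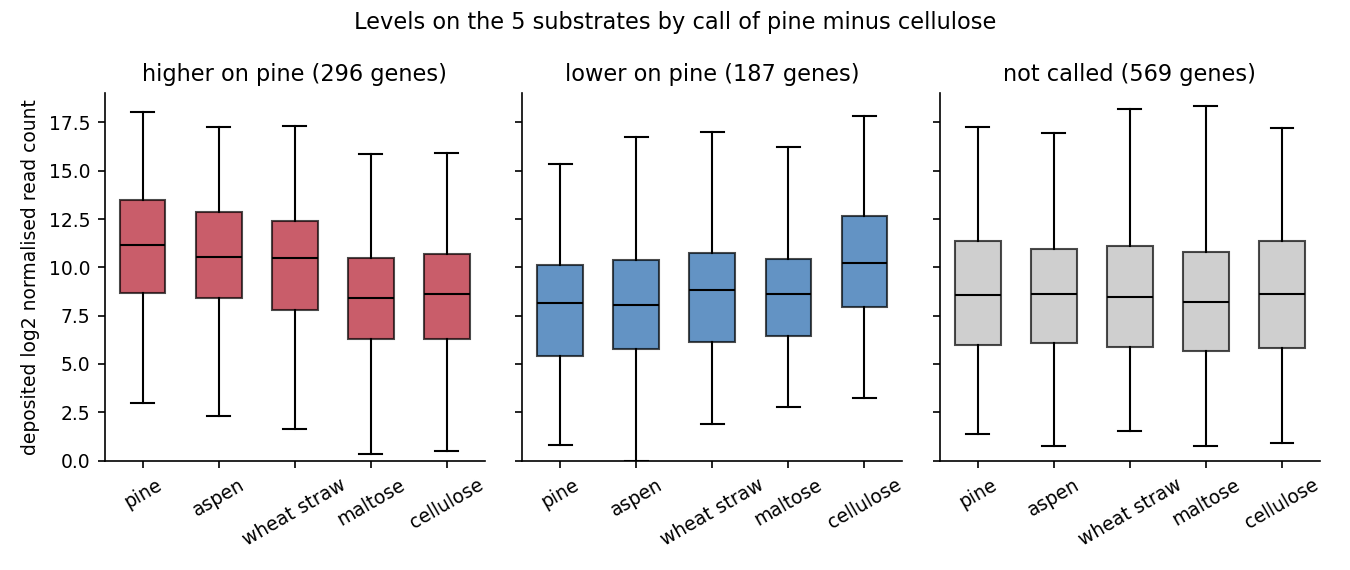
Deposited log2 normalised read counts on pine, aspen, wheat straw, maltose and cellulose for genes called higher on pine than on cellulose (296), called lower (187) and not called (569). Boxes give the interquartile range with the median as a line, and whiskers reach the farthest value within 1.5 box lengths; genes beyond them are not drawn. In the higher group the medians of pine, aspen and wheat straw (11.13, 10.55 and 10.46) lie above those of maltose and cellulose (8.40 and 8.64).

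Single genes of the higher group did not all behave like its median. The value on maltose was nearer to that on cellulose than to that on pine for 266 of the 296 genes and nearer to pine for 30. Since the genes were chosen on their pine and cellulose values, this count and those below are a description. No counts over all genes stand beside them. For 140 genes, aspen and wheat straw were both nearer to pine than to cellulose; their medians were 10.68 on pine, 10.57 on aspen, 10.21 on wheat straw, 7.62 on maltose and 7.65 on cellulose. For 65 genes aspen was nearer to pine but wheat straw nearer to cellulose, and for 28 genes it was the other way round. For 60 genes aspen, wheat straw and maltose were all nearer to cellulose than to pine, at medians of 11.78, 11.83 and 11.36. The choice of genes with a high pine value favours this pattern. These 60 were abundant genes with a smaller change, at medians of 13.50 on pine and 11.44 on cellulose, and a median difference of 1.55. Of them, 20 had recovered reads on both substrates and 37 remained called under all 3 other scalings. Of the 140 genes with aspen and wheat straw both near pine, 91 had recovered reads and 127 remained called.

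Within the lower group the level on sugar varied widely. The value on maltose lay between those on pine and cellulose for 80 of the 187 genes, below the pine value for 51 and above the cellulose value for 56. Divided by which of them maltose was nearer to, a division that sets the maltose levels of each side, 111 genes had maltose nearer to cellulose. These genes had medians of 6.72 on pine, 7.13 on aspen, 7.86 on wheat straw, 9.20 on maltose and 9.02 on cellulose. The medians on sugar and cellulose were thus near each other and above those on every plant material, as were the levels of gene 1117416. Single genes differed, as the 56 with maltose above cellulose show. For the other 76 genes maltose was nearer to pine. Their medians were 9.84 on pine, 10.12 on aspen, 10.30 on wheat straw, 7.62 on maltose and 12.44 on cellulose, so that cellulose gave the highest level, sugar the lowest and the plant materials lay between, as in gene 379663. Cellulose gave the highest of the 5 values for 127 of the 187 genes (67.9%), against 21.5% of all genes, but the choice of genes with a high cellulose value raises that share. The lowest value was on pine for 81 genes (43.3%, against 16.5% of all genes), on aspen for 49 (26.2%, against 18.5%), on wheat straw for 13 (6.95%, against 10.8%) and on maltose for 44 (23.5%, against 33.0%). Choosing genes low on pine likewise raises the share lowest on pine.

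The differences of aspen minus maltose and wheat straw minus maltose use no pine and no cellulose value. Their calls do share with pine minus cellulose the error of each gene, which pools the spread on all solved substrates. Genes of small spread are thus favoured in both sets of calls, and only the differences give a separate reading. Both comparisons also differ in added maltose, so the plant material and the sugar cannot be told apart in them. Of all genes, 32.8% were called higher and 13.8% lower on aspen than on maltose. Of the 296 genes higher on pine than on cellulose, 201 (67.9%) were called higher on aspen than on maltose and 2 (0.676%) lower, with a median difference of 1.69. Of the 187 genes lower on pine, 36 (19.3%) were higher on aspen than on maltose and 90 (48.1%) lower, with a median of -0.91. The median over all genes was 0.30. The share called higher in the higher group and the share called lower in the lower group were thus both above the background. Because of the shared error, these shares are a description. The share called higher in the lower group, 19.3%, stood beside 18.98% of the 569 genes not called.

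For wheat straw the background was 25.5% of genes called higher than on maltose and 10.4% called lower. Of the 296 genes, 161 (54.4%) were higher on wheat straw than on maltose and 6 (2.03%) lower, with a median difference of 1.25. Of the 187 genes, 38 (20.3%) were higher and 62 (33.2%) lower, with a median of -0.66. Of the genes not called, 12.1% were higher and 7.21% lower. The median over all genes was 0.19. Scaling moved these counts together with those over all genes. For wheat straw with median centring, 99 of the 296 genes were higher than on maltose, against 171 of all genes, and 119 of the 187 were lower, against 354 of all genes. Quantile normalisation gave 112 against 189 higher and 107 against 280 lower. For aspen with median centring, 142 of the 296 genes were higher, against 223 of all genes, and 124 of the 187 were lower, against 320. Quantile normalisation gave 148 against 241 higher and 122 against 308 lower.

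**Figure D4:**
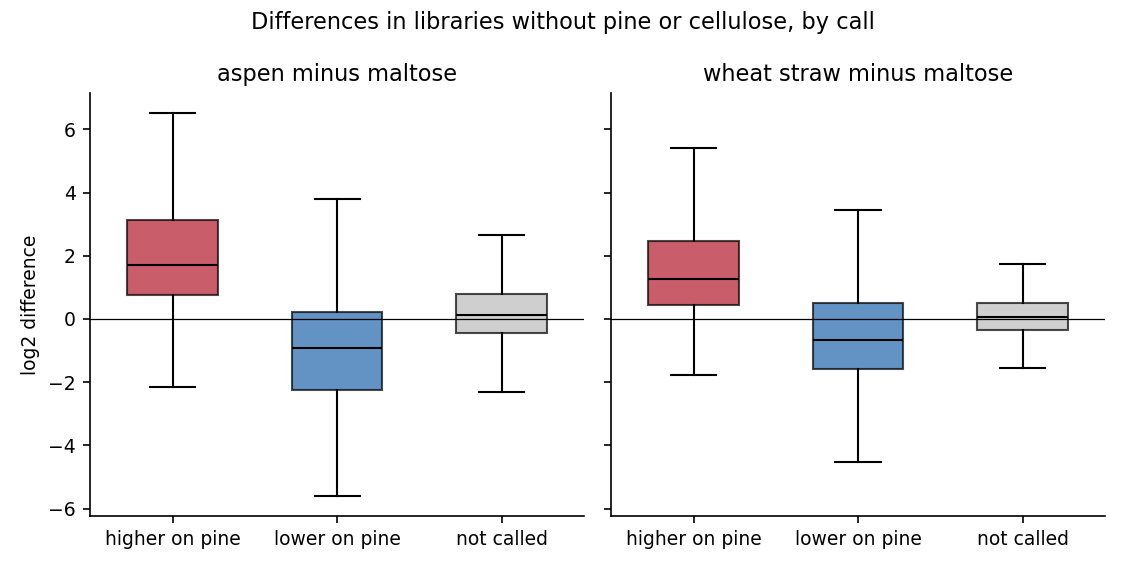
Log2 differences of aspen minus maltose (left) and wheat straw minus maltose (right) for genes called higher on pine than on cellulose, called lower and not called. Boxes give the interquartile range with the median as a line, and whiskers reach the farthest value within 1.5 box lengths; genes beyond them are not drawn. The medians are 1.69 and 1.25 in the higher group and -0.91 and -0.66 in the lower group.

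Pine was also tested directly against aspen and against wheat straw, since the cellulose values cancel when effects against cellulose are subtracted. These counts cover all genes and do not give the part of the called response that was particular to pine. For aspen the added maltose is misprinted in the labels, so equal sugar is not known there. Over all genes, 175 (16.6%) were higher on pine than on aspen and 75 (7.13%) lower, and 198 (18.8%) were higher on pine than on wheat straw and 93 (8.84%) lower. This excess of higher calls depended on the scaling. Quantile normalisation gave 107 genes higher and 89 lower on pine than on aspen, and 111 higher and 108 lower than on wheat straw. Median centring gave 137 higher and 121 lower than on aspen, and 177 higher and 102 lower than on wheat straw. Side by side, the 296 genes higher on pine than on cellulose differed from cellulose by a median of 2.12 on pine, 1.67 on aspen and 1.26 on wheat straw. The 187 lower genes had medians of -2.07 on pine, -1.69 on aspen and -1.33 on wheat straw. All of these share the cellulose libraries and the genes were chosen on the pine values, which favours pine, so the order of the medians is a description.

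The calls were examined for single libraries on the 787 genes with recovered reads, of which 170 were called higher and 166 lower when fitted alone. In every fit that left out 1 of the 5 libraries, 130 of the 170 and 115 of the 166 were still called. Leaving out a cellulose library cost the most calls: 147 of the 170 remained without library 1 and 150 without library 2, and of the 166 lower calls 138 remained in each of these fits. With 1 cellulose library left, its spread was taken to be like that of the other groups. The genes lower on pine were those with the widest spread on cellulose. The SD between cellulose libraries had a median of 0.41 for the 185 solved genes of that group, 0.31 for the 296 higher genes and 0.23 for the 567 uncalled ones. The cellulose libraries were at least 4-fold apart for 17 genes of the lower group (9.19%), 10 of them with library 1 on top, against 3.72% of all solved genes. On pine the median SD was 0.32 in the lower group, 0.33 in the higher group and 0.29 among uncalled genes. Pine library 1 was the highest pine library for 92 of 166 solved genes of the lower group and for 100 of 171 of the higher group. Without it 158 of the 170 higher calls and 158 of the 166 lower calls remained.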

How the data were processed

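RNA sequencing was done on 14 labelled samples. The deposited table gives 1 normalised log2 read count per gene and substrate, per the file headers. The submitters' processing notes name TopHat2, HTSeq and DESeq (version 1.5) with no role or order; the sources used here do not give the genome build, how these genes were selected or the constant added before taking logs. A deposited log2 value was modelled as an average, across a substrate's libraries, of log2(scaled reads + 1). The 16 lowest values of a column served to find the scales, and the 60 lowest to check them: all 60 came out whole within 1e-09 in every column, and at most 1 with the scales moved 1% up or down. Reads were kept where 1 solution in whole numbers matched; above a value of 6 the search covered a 16-fold range, and columns of 3 libraries were solved up to a value of 12. In simulated columns like pine and cellulose, 799 and 1052 of 1052 genes were solved, all rightly.

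The recovered log2 values of 13 libraries entered 1 limma 3.58.1 fit (R 4.3.3) with a mean per substrate, eBayes moderation with a level-dependent trend, and p-values adjusted over all genes by Benjamini-Hochberg. A substrate not solved for a gene kept its deposited mean and gave no spread. The planned test assumed a value per library, and was carried out on these recovered values. On reads simulated for pine minus cellulose over 1052 genes, the fit called 27 of 67 genes given a 2-fold change, 59 of 67 given 4-fold, 63 of 66 given 8-fold and 3 of 852 left unchanged. The simulation gave a gene the same spread on every substrate, whereas in the data the cellulose spread was wider in the lower group. Its counts therefore need not hold for these data. Named genes were the 2 in each direction with the largest difference in normalised reads among called, solved, non-overlapping genes. The members, the named-gene rule and the alternatives were chosen with earlier results of these data known. Alternatives were other scalings, another constant, a filter at 5, no trend, solved genes only, only the 2 substrates, and each library left out. Python 3.11.15, NumPy 2.4.6, numba 0.67.0 and matplotlib 3.10.9 were used.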

Additional observations from a re-analysis of the deposited data

Results flagged for a closer look

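Responses to pine and to another plant material, both against cellulose, differed by a direct test for 3 of the 4 named genes. Of all genes, 16.6% were called higher and 7.13% lower on pine than on aspen, and 18.8% higher and 8.84% lower than on wheat straw. The named genes were chosen for large differences of pine from cellulose, and the tests reuse the same pine values, which favours such calls. Gene 1118954 was higher on pine than on aspen by 1.95 (limma adjusted p = 0.00129) and than on wheat straw by 2.50 (limma adjusted p = 0.000637). Gene 1316507 was higher on pine than on aspen by 1.07 (limma adjusted p = 0.00512). For gene 379663 pine minus aspen was -1.95 (limma adjusted p = 0.00114) and pine minus wheat straw -2.79 (limma adjusted p = 0.000347). No group held enough libraries for a test of outlying samples.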

How the results depend on the processing

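The 4 named genes kept their direction and their call under every alternative run, 52 values in all. On genes solved on both substrates, leaving out each of the 5 libraries gave 163 to 176 higher calls, 146 to 174 lower calls and 49.27% to 53.99% of calls higher. The median difference over genes turned to -0.070 under median centring, -0.079 under quantile normalisation and -0.043 under the median shift. The share of higher calls was 50.71% under median centring, 50.85% under quantile normalisation and 50.6% on solved genes alone. Fitting solved genes alone leaves fewer genes: 170 were higher on pine than on cellulose, 80 higher on pine than on aspen, 92 than on wheat straw, 226 higher on aspen than on maltose and 165 on wheat straw. Quantile normalisation gave 107 genes higher on pine than on aspen, 111 than on wheat straw, and 308 and 280 genes lower on aspen and wheat straw than on maltose. Median centring gave 121 genes lower on pine than on aspen, 223 and 171 higher on aspen and wheat straw than on maltose, and 320 and 354 lower. The median shift gave 115 genes lower on pine than on aspen and 127 higher than on wheat straw, and the constant of 32 gave 48 lower than on aspen. For the scalings and the constant the cause was not tested. Of 78 counts past 4-fold, 16-fold or 64-fold, 70 stayed within 1.5 times and 8 were smaller; of 56 counts of calls against maltose among the called genes, 42 did. No paired analysis was possible because the columns carry no replicate numbers. Genes above a pine value of 12 have no measured pine spread, which limits the calls on abundant genes.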
